A study of Mus musculus with 4 samples.

Results

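The platelet agonist receptors and the thromboxane pathway were followed through 4 Affymetrix mouse arrays as a set of 10 genes: the thrombin receptors F2r and F2rl2, the ADP receptors P2ry1 and P2ry12, the ATP-gated channel P2rx1, the thromboxane receptor Tbxa2r, the enzymes Ptgs1 and Tbxas1, the G protein subunit Gnaq and the regulator Rgs18. The genes were chosen by name, with earlier results of these data known. Of the 10, 9 had a probe set that the platform annotation pairs with that gene alone, 19 probe sets in all, out of 18193 genes and 34945 probe sets paired with a single gene. Ptgs1 had no such probe set and was not analysed here.

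The arrays held RNA of leukemic blasts sorted for a GFP reporter that the retrovirus had carried into them. The leukemia is labelled M7, the megakaryoblastic type, and was derived by retroviral insertional mutagenesis of fetal progenitors with the Gata1s mutation of Gata1, which all samples carry. Blasts from spleen and from peripheral blood of the same 2 mice gave 2 arrays per tissue. The cells were taken directly from untreated animals. Both mice carry the same leukemia designation, T6(6), so the spread between them covers 1 leukemia. The labels used here give neither the age nor the strain of the mice, and no normal megakaryocytes were hybridised.

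Platelets answer to a small number of soluble agonists. Thrombin, ADP and thromboxane A2 act on receptors with 7 membrane-spanning helices, many of which signal through the G protein subunit Gq to phospholipase C and calcium, and ATP opens a cation channel. Thromboxane A2 is made inside the platelet from arachidonic acid, first by cyclooxygenase 1 (Ptgs1) and then by thromboxane synthase (Tbxas1), and acts back on platelets as a second wave of activation. Megakaryocytes, the cells that shed platelets, make these proteins as they mature.

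Array medians lay between 103.7 and 110.6, and log2 values of tested genes correlated at r = 0.96 to r = 0.98 between arrays, across genes, which are not independent replicates. Most but not all markers of the lineage were bright. Pf4, a chemokine of platelet granules, stood at 8341 and 8680 in spleen of mouse 1 and mouse 2, against 7507 and 7767 in blood, and Itga2b, a chain of the platelet integrin, at 4237 and 4990 against 4247 and 4512. Of 14 measured megakaryocyte and platelet markers 12 were tested, and 10 of these were above 0 in both mice for spleen minus blood, where 38.5% of all tested genes were. The other 2 were dim: Itgb3, the partner chain of Itga2b, had 39.7 and 123 in spleen, against 15.9 and -4.17 in blood, and Thbs1, a granule protein, had 74.2 and 36.7 against 51.9 and 47.2. The 12 tested markers had a median log2 difference of 0.32. At a limma unadjusted p under 0.05, 5 were higher in spleen (8.12% of all tested genes) and 0 lower (4.31%). Treml1, named after its values were seen, differed by 1.61 (limma adjusted p = 0.14), Pf4 by 0.16 and Itga2b by 0.07. Granulocyte markers set both arrays of mouse 2 apart, spleen as the lowest and blood as the highest. Their summed intensity was 4549 and 1493 in spleen of mouse 1 and mouse 2, against 7194 and 17550 in blood. On such arrays fewer cells of a type and less RNA per cell cannot be told apart.

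Levels are given as deposited intensities, on a linear scale. Where a gene had several probe sets, the one that was brightest on average stands for it. Differences are spleen minus blood on the scale log2(intensity + 16), which understates the change of dim genes. Only genes at least as bright on average as the middle probe set of the array, at an intensity of 106.4, were tested. That held for 8 of the 9 measured members, and P2ry12 was too dim. No member's level is set against another's, since each probe binds with its own strength.

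The first protease-activated receptor of thrombin, F2r (PAR1), is the main thrombin receptor of human platelets, whereas mouse platelets use F2rl2 (PAR3) and F2rl3 (PAR4) instead. F2r was bright on every array. Its brighter probe set had 5574 and 5577 in spleen of mouse 1 and mouse 2, against 5269 and 5643 in blood. The tissues overlapped, and the difference was 0.03 ± 0.11 (SE, 2 arrays per tissue; 95% interval -0.24 to 0.31; limma adjusted p = 0.927). The other F2r probe set lay at 4759 and 4474 in spleen and at 4504 and 4891 in blood, again with overlap. Both F2r probe sets carry a suffix that marks probes shared by several transcripts.

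F2rl2, which in mouse platelets binds thrombin and hands it to PAR4, had 306 and 393 in spleen of mouse 1 and mouse 2, against 224 and 286 in blood. Both spleen arrays were above both blood arrays, and the within-mouse differences were nearly equal, at 0.42 and 0.44. The mean difference of 0.43 ± 0.17 was 1.35-fold and did not pass over all genes (adjusted p = 0.398). Its other probe set had the same direction, with 0.62 in mouse 1 and 0.32 in mouse 2. The name of that probe set carries the suffix x_at, and its specificity was not tested. Without spleen of mouse 2 the difference of the brighter probe set was 0.26, and without blood of mouse 1 it was 0.27. F2rl3, the receptor that carries the thrombin signal in mouse platelets, was too dim to be tested, at 33.6 and 37.7 in spleen against 21.5 and 22.7 in blood.

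P2ry1, the Gq-coupled ADP receptor that starts calcium release and shape change, had 645 and 589 in spleen of mouse 1 and mouse 2, against 607 and 563 in blood. Spleen was above blood in each mouse by 0.09 and 0.06, less than the gap between the mice, and the tissues overlapped. The difference was 0.07 ± 0.12, with a 95% interval of -0.22 to 0.36 (adjusted p = 0.833). It was 0.01 without spleen of mouse 1, 0.02 without blood of mouse 2, 0.13 without blood of mouse 1 and 0.14 without spleen of mouse 2.

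P2ry12, the Gi-coupled ADP receptor that sustains aggregation and is the target of clopidogrel, was near the bottom of the scale. The values were 18.5 and 2.11 in spleen of mouse 1 and mouse 2, against 23.3 and 31.9 in blood. The spleen arrays lay below the blood arrays, but all 4 values are dim, the differences of -0.19 and -1.40 rest on the offset, and the gene was not tested. The mean difference was -0.80 with the offset of 16, -0.31 with 64 and -1.42 with 4.

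P2rx1, the ATP-gated cation channel, had 264 and 240 in spleen of mouse 1 and mouse 2, against 222 and 232 in blood. Spleen exceeded blood without overlap, with 0.24 for mouse 1 and 0.05 for mouse 2. The difference of 0.14 ± 0.12 did not pass (adjusted p = 0.646, 95% interval -0.14 to 0.43). It was 0.08 without spleen of mouse 1. The dimmer of its 2 probe sets differed by 0.31 and 0.17.

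**Figure D1:**
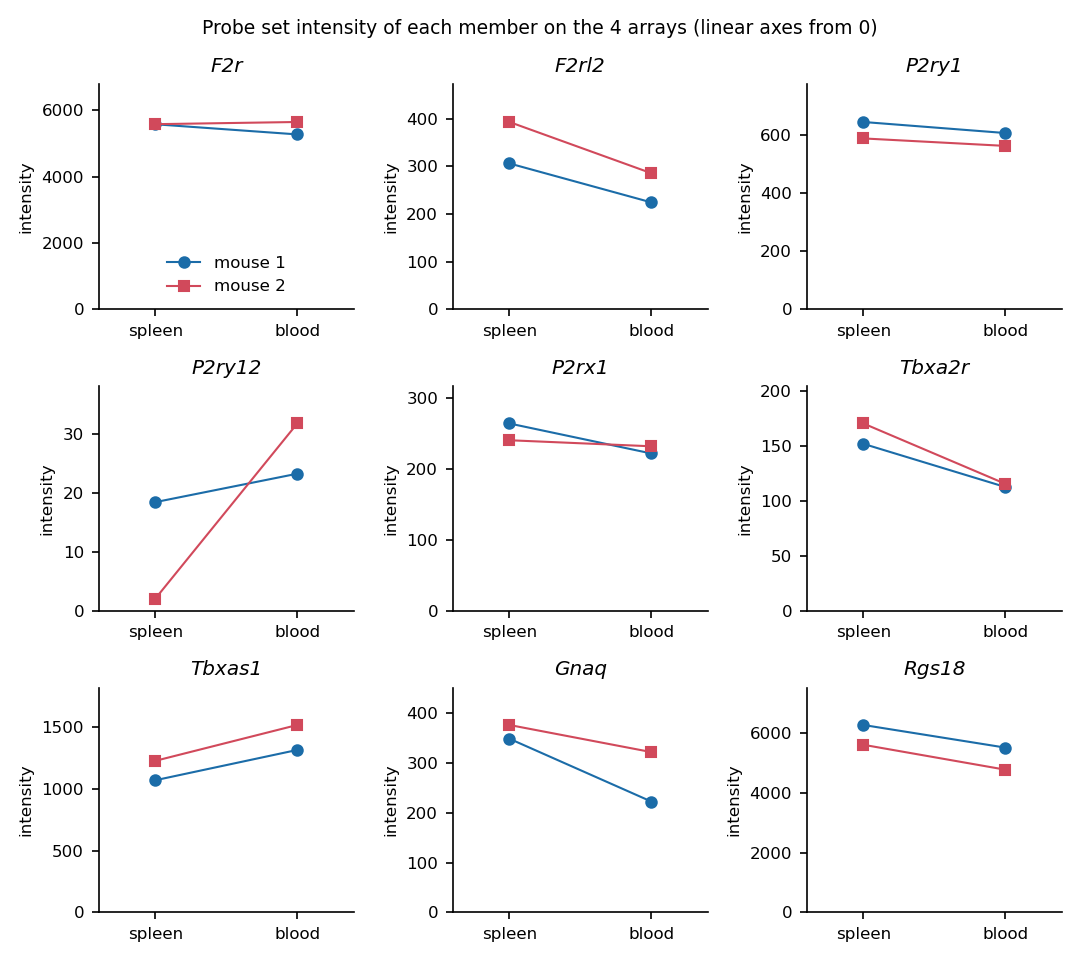
Deposited probe set intensity (linear axis from 0) of the 9 measured members, with spleen left and blood right in each panel and a line joining the tissues of 1 mouse. F2rl2, P2rx1, Tbxa2r, Gnaq and Rgs18 have both spleen values above both blood values, Tbxas1 has both below, and the mouse 1 point of F2r in spleen (5574) lies under that of mouse 2 (5577).

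Tbxa2r, the thromboxane receptor, had the smallest adjusted p of the members. Its single probe set had 152 and 170 in spleen of mouse 1 and mouse 2, against 113 and 115 in blood. Both spleen arrays stood above both blood arrays, which were nearly alike. The difference was 0.44 ± 0.12, a fold of 1.36 with a 95% interval of 0.16 to 0.73 on the log2 scale, and the adjusted p was 0.277. All 4 values are close to the brightness filter, and under a filter of 2 times the median Tbxa2r was not tested.

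Tbxas1, thromboxane synthase, a cytochrome P450 enzyme that turns prostaglandin H2 into thromboxane A2, ran the other way. It had 1070 and 1227 in spleen of mouse 1 and mouse 2, against 1315 and 1517 in blood. Spleen was below blood in each mouse by nearly the same amount, -0.29 and -0.30, and the tissues did not overlap. The difference of -0.30 ± 0.14 did not pass (adjusted p = 0.438), and its 95% interval was -0.63 to 0.03. The receptor and the enzyme of the thromboxane step, each with 1 probe set, had opposite directions in both mice. Whether these opposite differences differ from each other was not tested.

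Macrophages and monocytes also express Tbxas1. Of 15 measured markers of these cells, 8 were tested and 7 were too dim. Of the 8, 1 was below 0 in both mice, where 25.1% of all tested genes were, and 7 had opposite directions in the mice. The summed intensity of all 15 was 4622 and 3144 in spleen of mouse 1 and mouse 2, against 3696 and 7625 in blood. Lyz2 alone, named after its values were seen, had 2007 and 1812 in spleen, against 1879 and 3496 in blood. Of 9 tested granulocyte markers, 8 were below 0 in both mice (25.1% of all tested genes), with medians of -0.31 in mouse 1 and -3.22 in mouse 2. None of the markers of either list was under an intensity of 16 on all 4 arrays. The part of these cells in the Tbxas1 values was not tested. Without blood of mouse 2 Tbxas1 differed by -0.20, the same as without spleen of mouse 1, and it differed by -0.39 without spleen of mouse 2 and by -0.40 without blood of mouse 1.

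Gnaq, the subunit through which PAR, P2Y1 and thromboxane receptors reach phospholipase C, had 349 and 376 in spleen of mouse 1 and mouse 2, against 223 and 322 in blood. Spleen was above blood without overlap, with 0.61 for mouse 1 and 0.22 for mouse 2. The difference was 0.41 ± 0.18 (adjusted p = 0.431). Without blood of mouse 1 it was 0.16, and without blood of mouse 2 it was 0.66, so its size depended on which blood array was kept.

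Gnaq had 7 probe sets, the most of any member, and all 7 had a mean difference above 0. In both mice 5 were above 0, and the other 2 were within 0.01 of 0 in mouse 1. One of the 3 probe sets past the brightness filter had 176 and 173 in spleen of mouse 1 and mouse 2, against 97.4 and 107 in blood, which are differences of 0.76 and 0.62. It carries the same suffix as the F2r probe sets. Another of these 3 was nearly flat, with 112.5 and 133.9 in spleen, against 113.4 and 123.3 in blood. Its differences were -0.01 in mouse 1 and 0.11 in mouse 2. With the mean of all 7 probe sets Gnaq differed by 0.42, at an adjusted p of 0.240.

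Rgs18, a regulator that speeds GTP hydrolysis on Gi and Gq and is abundant in platelets, was bright. It had 6267 and 5605 in spleen of mouse 1 and mouse 2, against 5511 and 4773 in blood. The spleen arrays lay above the blood arrays, by 0.19 and 0.23 within the mice. The difference of 0.21 ± 0.13 did not pass (adjusted p = 0.560, 95% interval -0.11 to 0.53). Its other probe set differed by 0.23 and 0.15. Without blood of mouse 2 the difference was 0.10, and without spleen of mouse 1 it was 0.13.

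**Figure D2:**
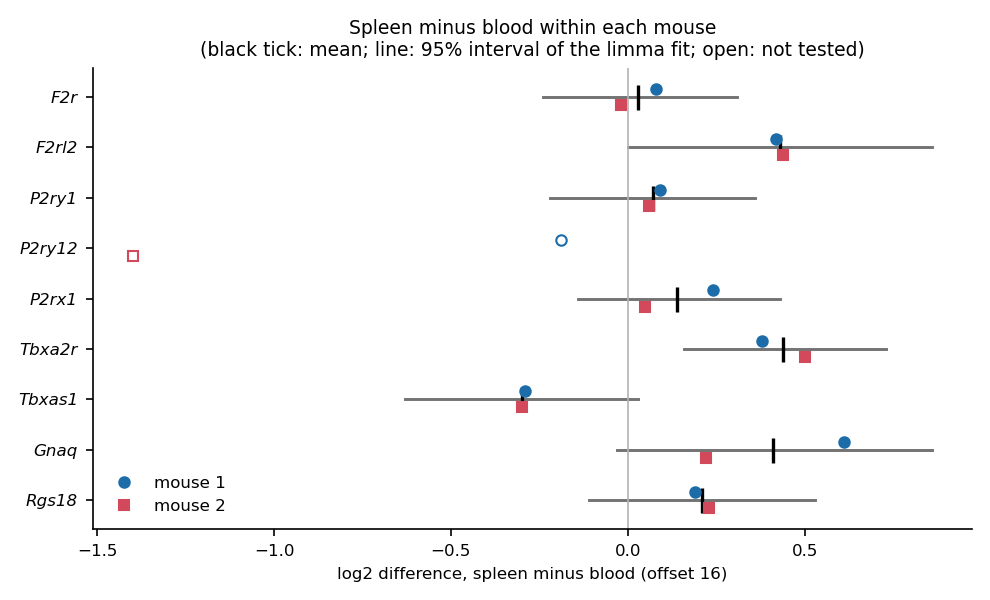
Log2 difference of spleen minus blood (offset 16) of each measured member, in mouse 1 (circles) and mouse 2 (squares), with the mean as a black tick and the 95% interval of the limma fit as a line; P2ry12 was not tested and has open symbols. The points of F2rl2, Tbxa2r and Tbxas1 lie close together away from 0, and F2r straddles 0.

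No member passed the test. With limma and Benjamini-Hochberg adjustment at 0.05, 0 of 8 tested members and 0 of 11614 tested genes were called, a background of 0%, and the smallest adjusted p of any gene was 0.140. At an unadjusted p under 0.05, 2 of 8 members were higher in spleen, F2rl2 and Tbxa2r, where 8.12% of all tested genes were, and 0 of 8 were lower, where 4.31% were. These unadjusted calls depended on the fit. With mouse as a block, Gnaq, higher in spleen, and Tbxas1, lower in spleen, were also under 0.05. Spleen minus blood was above 0 in both mice for 6 of 8 members (38.5% of all tested genes) and below 0 in both for 1 of 8 (25.1%). Both spleen arrays were above both blood arrays for 5 of 8 members (27.5% of all tested genes) and below for 1 of 8 (17.6%). The median difference was 0.18 over the 8 tested members, 0.14 over the 9 measured ones and 0.03 over all tested genes. Over the 12 tested megakaryocyte and platelet markers it was 0.32. By mouse, the 8 tested members had medians of 0.21 in mouse 1 and 0.14 in mouse 2, beside 0.07 and 0.0065 for all tested genes.

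Of the 19 probe sets, 13 were above 0 in both mice, 2 were below 0 in both (Tbxas1 and P2ry12), and the other 4 were the F2r pair and the 2 probe sets of Gnaq named above. Probe sets of 1 gene share their RNA and are not replicates. Those of F2rl2, P2rx1 and Rgs18 had a single direction, and 5 of the 19 were under the brightness filter.

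**Figure D3:**
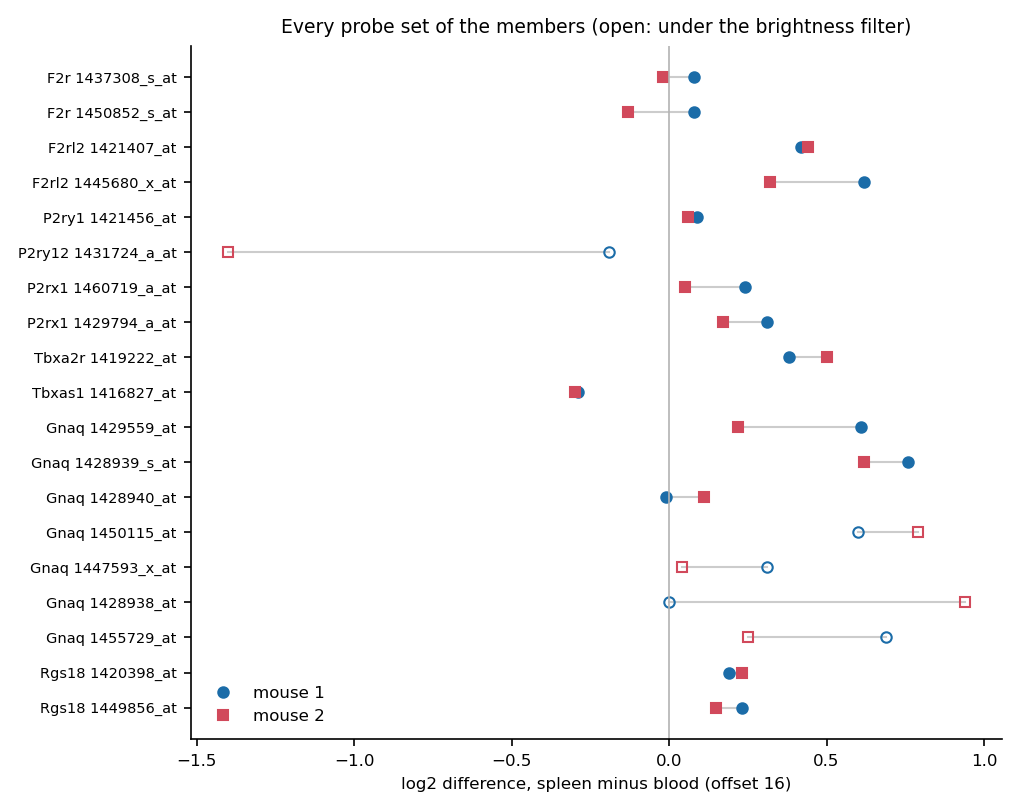
Log2 difference of spleen minus blood (offset 16) for all 19 probe sets of the members, in mouse 1 (circles) and mouse 2 (squares); open symbols mark the 5 probe sets under the brightness filter. All 7 rows of Gnaq lie at or right of about 0, and the brighter ones do not all share 1 size.

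The sequences before the gene starts were compared next, since the choice of the members did not use them. Promoter sequences of RefSeq, build GRCm38.p6, were found for 8 of the 9 measured members, 9 promoters in all, with 2 for Tbxa2r and none used for Rgs18. The 250 bases before each start were searched on both strands for letters of factors known from megakaryocytes: GATA, written as AGATAA or as TGATAA or as AGATAG or as TGATAG; ETS, written as CAGGAA or as CCGGAA; RUNX, written as TGTGGT or as TGCGGT; and AP-1, written as TGAGTCA. The GATA letters were in 2 of 8 members (26.5% of all promoters in the table), ETS letters in 3 of 8 (35.1%), RUNX letters in 1 of 8 (18.6%) and AP-1 letters in 2 of 8 (4.46%). These shares of all promoters count every start in the table, and no match overlapped another.

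The promoters shown belong to F2rl2 and Tbxa2r, the members with an unadjusted p under 0.05 with tissue as the sole term. The others are of P2rx1, the other gene with GATA letters, of F2r, which shares the AP-1 letters with F2rl2, and of Tbxas1, which ran the other way. Capitals mark the matches.
F2rl2, chr13:95696670-95696919, plus strand: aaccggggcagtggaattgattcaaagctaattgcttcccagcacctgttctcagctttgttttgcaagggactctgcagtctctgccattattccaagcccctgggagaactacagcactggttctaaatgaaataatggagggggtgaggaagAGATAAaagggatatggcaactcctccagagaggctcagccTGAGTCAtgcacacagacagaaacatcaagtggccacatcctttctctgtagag
Tbxa2r, chr10:81328018-81328267, plus strand: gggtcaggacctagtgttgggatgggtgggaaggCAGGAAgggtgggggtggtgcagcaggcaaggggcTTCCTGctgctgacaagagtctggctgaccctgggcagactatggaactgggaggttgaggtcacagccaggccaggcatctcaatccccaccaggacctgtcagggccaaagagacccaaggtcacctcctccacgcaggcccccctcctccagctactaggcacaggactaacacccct
P2rx1, chr11:72998895-72999144, plus strand: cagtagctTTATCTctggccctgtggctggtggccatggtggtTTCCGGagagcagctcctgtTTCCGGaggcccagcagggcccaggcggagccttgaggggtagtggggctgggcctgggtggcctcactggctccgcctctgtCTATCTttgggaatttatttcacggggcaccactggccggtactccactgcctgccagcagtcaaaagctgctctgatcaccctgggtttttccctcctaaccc
F2r, chr13:95618467-95618716, minus strand: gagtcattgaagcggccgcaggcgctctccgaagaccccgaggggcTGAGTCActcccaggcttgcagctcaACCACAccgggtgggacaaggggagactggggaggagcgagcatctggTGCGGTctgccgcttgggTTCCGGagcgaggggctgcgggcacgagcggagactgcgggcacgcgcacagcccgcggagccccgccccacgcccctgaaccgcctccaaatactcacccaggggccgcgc
Tbxas1, chr6:38918736-38918985, plus strand: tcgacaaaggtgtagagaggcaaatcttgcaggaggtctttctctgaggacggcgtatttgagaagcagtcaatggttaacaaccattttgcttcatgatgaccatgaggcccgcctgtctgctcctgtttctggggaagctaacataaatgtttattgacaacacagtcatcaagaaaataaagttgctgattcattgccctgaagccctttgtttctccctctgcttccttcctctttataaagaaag

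In F2rl2 the AGATAA letters began 95 bases before the start and TGAGTCA began 54 bases before it. P2rx1 held GATA letters on the minus strand 242 and 104 bases before the start and ETS letters between them, 207 and 187 bases before it. F2r held TGAGTCA at 204 bases, RUNX letters at 178 and 130 bases and ETS letters at 112 bases. The first Tbxa2r promoter held ETS letters at 216 and 181 bases, and its second none of the 4 motifs. The Tbxas1 window, like those of P2ry1, P2ry12 and Gnaq, held none of these letters. Such matches are letters in a window and not sites. F2r and F2rl2 lie on chromosome 13 with 1 protein-coding gene, Iqgap2, in or across the stretch between them in that assembly.

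The other genes of the pathway were taken as 4 lists, chosen like the members with earlier results of these arrays known. None of their genes passed the test over all genes. Among the other agonist receptors, 9 of 20 were tested, 4 above 0 in both mice (38.5% of all tested genes) and 2 below 0 in both (25.1%), with a median of -0.07. At an unadjusted p under 0.05, 4 were higher in spleen (8.12% of all tested genes) and 0 lower (4.31%). Clec1b (CLEC-2), the podoplanin receptor of platelets, had 720 and 517 in spleen of mouse 1 and mouse 2, against 411 and 283 in blood, a difference of 0.81 ± 0.23 (adjusted p = 0.305). The chemokine receptor Cxcr4 had 599 and 664 in spleen, against 359 and 429 in blood, a difference of 0.66 ± 0.14 (adjusted p = 0.194).

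Gp6, the collagen receptor, stood at 240 and 213 in spleen of mouse 1 and mouse 2, against 177 and 174 in blood. Gp6, Clec1b and Cxcr4 did not overlap between the tissues, as 27.5% of all tested genes did not in this direction, and the rule that named them favours genes of this kind. The fourth was Ptger3, a prostaglandin E2 receptor, named after its values were seen, with 597 and 630 in spleen, against 505 and 428 in blood. Fcer1g, the signalling chain that Gp6 shares with Fc receptors of myeloid cells, had a difference of 0.28 in mouse 1 and of -3.01 in mouse 2. The tested granulocyte markers had medians of -0.31 in mouse 1 and -3.22 in mouse 2. Those of macrophages and monocytes had medians of 0.1 and -0.9, and those of T and NK cells of 0.01 and -0.52. The part of any of these cells in the Fcer1g values was not tested.

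Among G protein and calcium signalling genes, 34 of 39 were tested, 13 above 0 in both mice (38.5% of all tested genes), 10 below 0 in both (25.1%) and 11 of mixed direction, with a median of 0.07. At an unadjusted p under 0.05, 0 were higher (8.12% of all tested genes) and 2 lower (4.31%). Plcb3, a phospholipase C that Gq activates, had 288 and 282 in spleen of mouse 1 and mouse 2, against 348 and 380 in blood, and differed by -0.34 ± 0.11 (adjusted p = 0.349). The second was Arhgef1, an exchange factor for RhoA, named after its values were seen, at 1406 and 1394 in spleen against 1633 and 1800 in blood. Gna12 differed by 0.27 ± 0.15 and the adaptor Lat by 0.27 ± 0.17. Plcb2, the main phospholipase C of platelet Gq signalling, had 471 and 461 in spleen, against 540 and 505 in blood. Gna13, which couples some of the Gq-coupled receptors to RhoA, had 1737 and 1608 in spleen, against 1515 and 1517 in blood. Of its 7 probe sets, 5 had that direction. Rasgrp2, the calcium-sensing activator of Rap1, had 648 and 480 in spleen, against 662 and 512 in blood, with overlap. Only 1 of its 4 probe sets, the one given, had that direction.

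The list of the inhibitory arm holds receptors, kinases, RGS proteins and arrestins that restrain platelet activation. It also holds the phosphodiesterases Pde3a, Pde3b and Pde5a, which break down cyclic nucleotides such as cGMP and so oppose that restraint. Of its 26 genes 14 were tested, 4 above 0 in both mice (38.5% of all tested genes) and 6 below 0 in both (25.1%), with a median of -0.12. At an unadjusted p under 0.05, 3 were higher (8.12% of all tested genes) and 1 lower (4.31%). Prkg1, the kinase through which nitric oxide and cGMP act, had 350 and 384 in spleen of mouse 1 and mouse 2, against 228 and 224 in blood, a difference of 0.66 ± 0.11 (adjusted p = 0.150). Rgs10, an RGS protein like Rgs18, had 1014 and 1100 in spleen, against 740 and 835 in blood, a difference of 0.42 ± 0.12 (adjusted p = 0.313). Grk6, a kinase of active receptors, named after its values were seen, had 1714 and 1601 in spleen, against 1378 and 1350 in blood. Rgs1 went the other way, with 654 and 526 in spleen against 790 and 814 in blood, a difference of -0.44 ± 0.14 (adjusted p = 0.333). The prostacyclin receptor Ptgir was dim, between 27.3 and 43.7, and was not tested.

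Among enzymes and transporters of eicosanoids, 12 of 23 were tested, 6 above 0 in both mice (38.5% of all tested genes) and 3 below 0 in both (25.1%), with a median of 0.09. At an unadjusted p under 0.05, 0 were higher (8.12% of all tested genes) and 0 lower (4.31%). Pla2g4a, the phospholipase that frees arachidonic acid for thromboxane synthesis, had 916 and 951 in spleen of mouse 1 and mouse 2, against 749 and 881 in blood, a difference of 0.20 ± 0.13 (adjusted p = 0.569). Abcc4, a transporter of prostaglandins and nucleotides, differed by 0.23 ± 0.12, and Alox5, the first enzyme of leukotriene synthesis, by 0.18 ± 0.16. Mgll, a lipase that can supply arachidonic acid, differed by 0.75 ± 0.50, but 1 of its 4 probe sets had that direction. Ptgs2, the inducible cyclooxygenase, was too dim to be tested, with 126 and 70.3 in spleen against 66.4 and 32.3 in blood, and so was Alox12, the platelet 12-lipoxygenase, between 41.6 and 57.3.

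**Figure D4:**
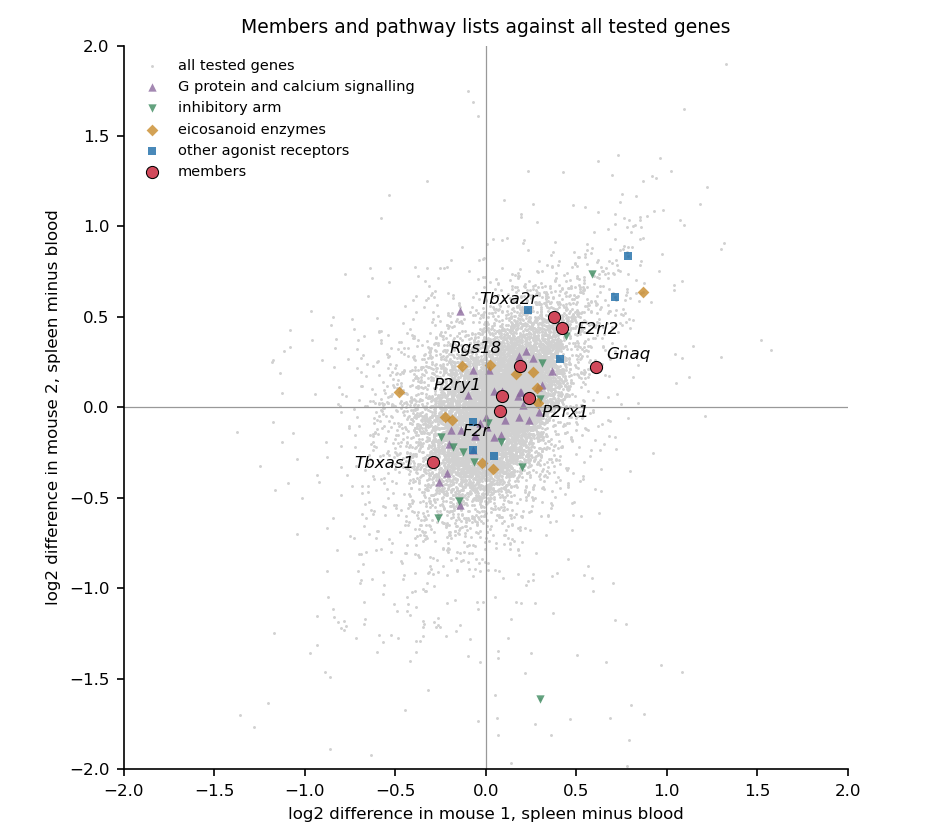
Log2 difference of spleen minus blood (offset 16) in mouse 1 (horizontal) and mouse 2 (vertical) for all tested genes (grey), the 4 pathway lists (coloured) and the 8 tested members (red, named). Axes end at 2, which leaves out 46 of 11614 genes, Fcer1g and Fcgr4 of the lists among them; F2rl2, Tbxa2r, Gnaq and Rgs18 lie at the upper right and Tbxas1 at the lower left.

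Taking for each tested member the smaller of its differences in the 2 mice, F2rl2 had the largest, at 0.42. Nearest to it over the 4 arrays, by the Euclidean distance of log2 values centred on each gene's mean, were Espl1, the protease that cuts cohesin in mitosis, at 0.019, Rnaseh2c, a subunit of ribonuclease H2, at 0.033, and Asb14 at 0.057. Espl1 had 1140 and 1466 in spleen of mouse 1 and mouse 2, against 843 and 1080 in blood. All 3 shared with F2rl2 both the spleen values above blood and the higher values of mouse 2 in each tissue. With 4 arrays such likeness describes these samples only.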

How the data were processed

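Gene expression was measured on Affymetrix mouse arrays in GFP-sorted leukemic blasts of spleen and peripheral blood of 2 mice. The authors deposited 1 intensity per probe set; the numbers are linear, with 1.60% to 2.17% of each array below 0. The authors' summary, background and scaling methods are not given in the sources used here, and their scaling was kept. Negative intensities became 0, and log2 was taken after an offset of 16.

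The array has 45101 probe sets: the annotation gave a single symbol for 34945 and several for 932, left 9211 out, and 13 were control probe sets with a symbol, not used here. Symbols were updated by Entrez identifier through a RefSeq table of GRCm38.p6 (34741 probe sets). The brightest probe set stood for each of 18193 genes, and the 11614 reaching the median of all probe sets were tested with limma 3.58.1 in R 4.3.3 (lmFit and eBayes, two-sided, tissue as the sole term, Benjamini-Hochberg over all tested genes). Errors are standard errors of that fit. The number of arrays limits the precision.

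Members, lists and the other genes named were chosen with earlier results of these data known. All members were named. Of each pathway list, the 3 tested genes of one direction in both mice whose smaller difference was largest were named, with genes fixed for their step, the 3 genes nearest to 1 member, and any others as stated. Mouse number pairs the arrays because both tissues came from the same animal; the differences between the mice in blood and in spleen correlated at r = 0.10 across genes. Mouse as a block, other offsets, scalings, filters, variance priors, probe set rules and leaving out each array were alternatives. The p-values measure the spread between these samples only. Ptgs1 and 1 gene or more of most lists had no probe set of a single name and were not analysed here.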

Additional observations from a re-analysis of the deposited data

How the results depend on the processing

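No member passed the test under any of the 13 alternatives, and the lowest adjusted p of a member was 0.226, for Tbxa2r with each array centred on its median. With mouse as a replicate block 0 genes and 0 members passed, F2rl2 had an adjusted p of 0.234 and Tbxa2r of 0.235, and no call changed. The number of genes called over the whole table was 45 (23 higher, 22 lower) with a variance prior that follows intensity, and from 0 to 20 with 1 array left out: 20 without spleen of mouse 1 (2 higher, 18 lower) and 0 without each of the others; the cause was not tested. Of 117 differences of single members under the alternatives, 116 kept their direction, and that of F2r reversed to -0.02 without blood of mouse 1. The median difference of the measured members stayed between 0.08 and 0.21, and 5 to 7 members were above 0 in both mice under the alternatives that kept both. With 1 array left out, its tissue has a single array, whose spread is taken to be that of the other tissue, so the calls of those fits say little about stability. Leaving out 1 array moved F2rl2 between 0.26 and 0.60, Gnaq between 0.16 and 0.66, Rgs18 between 0.10 and 0.31, P2rx1 between 0.08 and 0.21 and P2ry1 between 0.01 and 0.14. Tbxa2r lay between 0.34 and 0.52 and Tbxas1 between -0.40 and -0.20 under all alternatives. P2ry12 ranged from -1.42 to -0.31 with the offset. Signal far under the brightness filter limits P2ry12, and signal near the filter limits Tbxa2r and the dimmer probe sets of Gnaq.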

Other observations

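The members also differed between the animals, which were compared with 1 animal per side and no test. F2rl2 was higher in mouse 2 than in mouse 1 by 0.34 in spleen and by 0.33 in blood on the log2 scale, close to the size of its tissue difference. Tbxas1 was higher in mouse 2 by 0.19 in spleen and by 0.20 in blood. Rgs18 differed by -0.16 in spleen and by -0.21 in blood for mouse 2 minus mouse 1, and P2ry1 by -0.13 and -0.11. Gnaq differed by 0.11 in spleen and by 0.50 in blood, so that its tissue difference in mouse 1 was the wider of the pair. Tbxa2r differed by 0.15 in spleen and by 0.03 in blood.

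Markers of other cells were summed by list, in which the brightest probe sets weigh most. Those of B cells summed to 787 and 715 in spleen of mouse 1 and mouse 2, against 690 and 657 in blood, and those of endothelium and stroma to 816 and 958 against 884 and 1026. Mast cell and basophil markers summed to 702 and 396 in spleen, against 711 and 482 in blood, and T and NK cell markers to 9219 and 5910 against 7941 and 11210. Of the T and NK cell markers, Nkg7 alone had 3556 and 3590 in spleen, against 3675 and 4159 in blood. The erythroid list summed to 6759 and 6481 in spleen, against 7235 and 7533 in blood. The neutrophil gene S100a9 had 1146 and 144 in spleen of mouse 1 and mouse 2, against 2333 and 5862 in blood, the macrophage gene Mpeg1 had 184 and 24.7 against 71.8 and 708, and the cytotoxic granzyme Gzma had 2757 and 171 against 1338 and 3486. Not all macrophage genes followed Mpeg1. C1qc had 231 and 71.7 in spleen, against 29.7 and 37.3 in blood, and Cd5l had 157 and 29.9 against 10.8 and 13.5. Both were too dim to be tested and were named after their values were seen. Of the 8 tested markers of that list, 1 was below 0 in both mice and 7 had opposite directions in the mice. Fcer1a, of mast cells and basophils, had 380 and 108 in spleen, against 375 and 148 in blood. The B cell gene Cd79a lay between 47.8 and 57.8, and the endothelial Cdh5 between 27.1 and 73.8. Both were too dim to be tested, and only 1 of 2 Cdh5 probe sets was lower in spleen on average. Vpreb3 and Pax5, the 2 tested B cell markers, were above 0 in both mice for spleen minus blood (38.5% of all tested genes). Of the 2 Pax5 probe sets, 1 had that direction. Cpa3, a mast cell protease, and Pdgfrb, a receptor of stromal cells, were under an intensity of 16 on every array. The part of these cells in the values of the members was not tested.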
